A study of Mus musculus with 14 samples.

Results

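The interaction of genotype and folinic acid asks whether uteri of Folr4 mutant mice responded to folinic acid differently from wild-type uteri. It was taken for each of 45037 non-control probe sets as the response of the mutants (folinic acid minus saline, log2 of the array signal) minus the same response in wild type. All 14 arrays of the series entered it, so that a value of 1 means that the fold change in mutants was 1 log2 unit above that in wild type. Every array held RNA of a whole uterus of a C57BL/6 female, taken 3.5 days into gestation. The groups were mutants given folinic acid (n = 4), mutants given saline (n = 3), wild type given folinic acid (n = 3) and wild type given saline (n = 4). The mutants were homozygous for the Folr4 mutation (Folr4-/-). Folinic acid was injected into the peritoneum at 12.5 mg/kg, 10 and 3 days before mating, and the labels state no dose or days for saline. The replicates are called biological, but 2 wild-type saline titles share a number and 2 wild-type folinic acid titles share another, with no meaning stated, so the p-values measure the spread between these samples.

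Folinic acid is a reduced folate that enters the one-carbon cycle without dihydrofolate reductase, and this cycle supplies carbon units for thymidylate, purines and methionine. Folr4, now named Izumo1r, encodes Juno, a relative of the folate receptors that sits on the egg and is known as the receptor of the sperm protein Izumo1. At this stage of gestation the mouse uterus is under rising progesterone: luminal epithelium stops dividing, stromal cells begin to divide, and the lining prepares for the attachment of blastocysts. Progesterone acts on the epithelium through targets such as Ihh and opposes the secretory genes that oestrogen induces.

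The arrays set the limits of the comparison. The probe set of Izumo1r was dim in every group, at 8.67, 14.8, 41.3 and 6.14 in mutants given folinic acid, 11.4, 70.2 and 7.0 in mutants given saline, 16.3, 13.5 and 54.8 in wild type given folinic acid, and 19.0, 46.9, 52.7 and 72.4 in wild type given saline. The groups overlapped, so the gene gave no check of the labels, and its interaction was 0.50 ± 1.25 (SE, limma adjusted p = 0.988). All 8 epithelial, 7 stromal and 6 smooth muscle markers lay above the median signal, while none of 4 blastocyst markers did. The first principal component (25.7% of the variance) placed replicate 2 of the mutants given folinic acid at 41.4, against -61.0, -25.8 and -27.3 for its group and 29.2, 37.6 and 0.826 for the mutants given saline. Values without it are given beside several of the results. The ratio of 3' to 5' actin signal, a sign of RNA integrity, was highest in replicate 3 of wild type given saline, at 3.64. In whole uteri, fewer cells of a type and less RNA per cell cannot be told apart.

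No probe set passed the test of the interaction: 0 of 45037 (0.0%) had an adjusted p under 0.05 (limma, Benjamini-Hochberg). At an unadjusted p under 0.05 there were 2277 probe sets (5.06%), of which 1220 (2.71%) lay above 0 and 1057 (2.35%) below 0. Among the 22519 probe sets at or above the median signal, 1115 (4.95%) reached that level, 517 (2.3%) above 0 and 598 (2.66%) below 0. With no call at the adjusted threshold, what follows describes sizes and patterns of single genes and groups and calls no interaction. The same fit called 2 probe sets (0.00444%) for folinic acid in mutants, with 4623 (10.3%) at an unadjusted p under 0.05, and none (0.0%) in wild type, with 1555 (3.45%) at that level. The responses of the genotypes share no arrays, but each is also a part of the interaction.

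Over 11269 genes, each by its brightest probe set, the median size of the response was 0.20 in mutants and 0.13 in wild type on the log2 scale. The responses of both genotypes had opposite signs in 45.9% of genes, and their correlation across genes was 0.09 (Pearson) and 0.11 (Spearman), a description over genes that are not independent replicates. The median interaction was -0.01, its median size 0.21 and its median standard error 0.30, so the typical interaction was smaller than its own error. The interaction lay above 0 in 48.2% of these genes. At an unadjusted interaction p under 0.05 there were 597 genes (5.3%), 255 above 0 (2.26%) and 342 below 0 (3.03%). Of the 597, 89.8% had responses of opposite sign, and in 83.8% the response of the mutants was the larger in size. Both figures follow in part from choosing genes by a difference of responses.

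**Figure D1:**
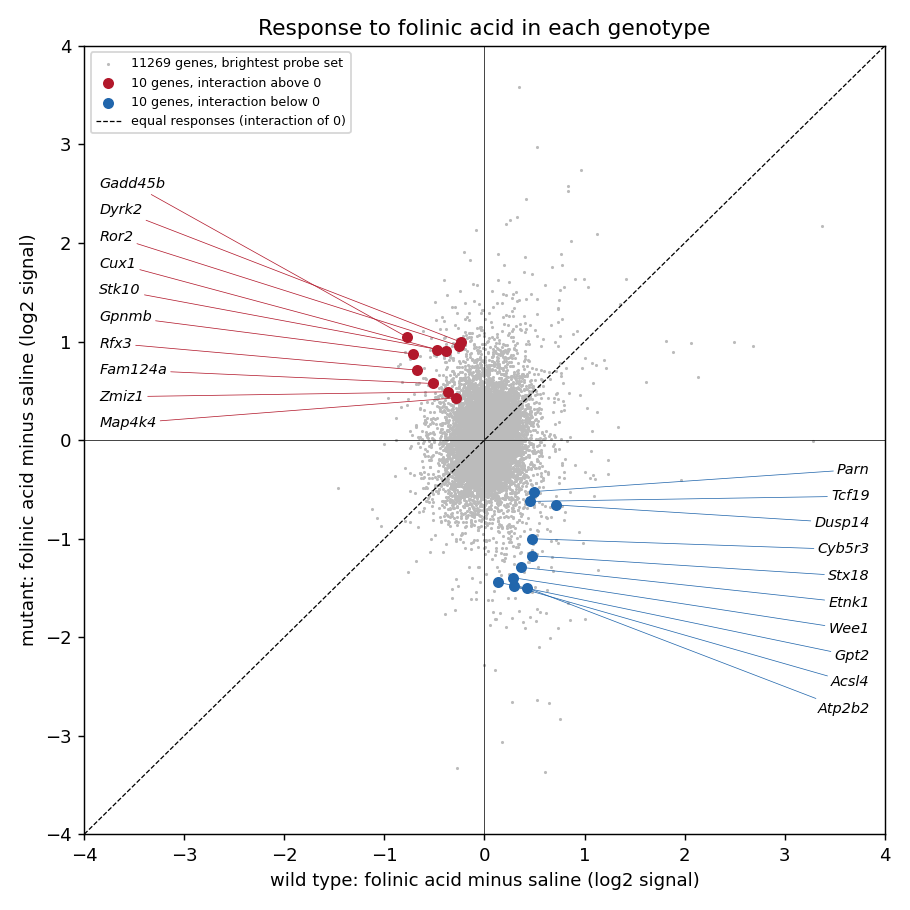
Response of each gene to folinic acid (log2 signal, folinic acid minus saline) in mutants (vertical axis) against wild type (horizontal axis), for 11269 genes as grey points, with the 10 genes of smallest interaction p per direction in red (above 0) and blue (below 0). The cloud is taller than it is wide, with median response sizes of 0.20 in mutants and 0.13 in wild type, and the named genes lie far from the dashed line of equal responses.

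A probe set of Neurl3, a ubiquitin ligase of the neuralized family, had the smallest adjusted p of the interaction, 0.275 (limma). Its signals were 277, 89.8, 112 and 127 in mutants given folinic acid and 8.41, 6.30 and 18.7 in mutants given saline. In wild type they were 66.5, 102 and 106 after folinic acid and 157, 118, 159 and 108 after saline. Folinic acid arrays lay above saline arrays in mutants and below them in wild type, with no overlap in either genotype, and the interaction was 4.36 ± 0.66 (SE). The response of Neurl3 was 3.78 ± 0.47 in mutants (limma adjusted p = 0.0205) and -0.57 ± 0.47 in wild type. The mutants given saline lay near the bottom of the scale, so the size depends on how low signals are treated. With 16 added to every signal in place of a floor of 1, the interaction was 3.03 ± 0.49 and the response of the mutants 2.53 ± 0.35, which missed the threshold (adjusted p = 0.0501). Leaving out each array in turn, that response passed in 7 of 14 fits (adjusted p of 0.00648 to 0.105), so the call rests on the settings and on single arrays. The 3 mutants given saline were the low group, and the wild-type groups came as close as 106 and 108. The probe set is dim, below the median signal of 134.2 on most arrays. The gene was chosen after its values were seen. Without replicate 3 of the mutants given saline, the interaction of Neurl3 passed the threshold, at 4.81 (limma adjusted p = 0.0473). So did that of 1 dim probe set that was not assigned to a single gene symbol.

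Probe sets whose groups moved in opposite directions without overlap have the form of an interaction in which both genotypes move. There were 43 of these among 45037 (0.0955%): in 29 (0.0644%) the mutants lay higher and wild type lower after folinic acid, and in 14 (0.0311%) it was the reverse. At or above the median signal there were 15 (0.0666%), 10 of the first kind (0.0444%) and 5 of the other (0.0222%), among 22519. Separation within 1 genotype is a weaker condition and was more frequent. Every folinic acid array lay above every saline array for 3.93% of probe sets in mutants and 2.13% in wild type. The reverse held for 5.0% in mutants and 3.12% in wild type. No test was made of these counts, and each requires a complete separation of small groups. Small groups also separate by chance, so the counts alone are no sign of an interaction.

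Among bright genes that were higher in mutants and lower in wild type after folinic acid, Cux1, a homeodomain transcription factor encoded on chromosome 5, had the smallest interaction p. Its signals were 732, 652, 709 and 984 in mutants given folinic acid and 527, 280.4 and 440.4 in mutants given saline. Wild-type signals were 432, 432 and 477 after folinic acid and 548, 591, 859.8 and 528 after saline. The mutants given folinic acid and the wild type given saline were thus the high groups. The interaction of Cux1 was 1.39 ± 0.32 (SE, adjusted p = 0.938), a 2.62-fold difference between the fold changes, made of a response of 0.92 ± 0.23 in mutants and -0.47 ± 0.23 in wild type. The other 5 probe sets of Cux1 above the median signal all lay above 0, by less, at 0.11 to 0.93.

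Rfx3, a transcription factor of cilia genes on chromosome 19, had the same order of groups. Its signals were 372, 312, 349 and 533 in mutants given folinic acid, against 299.8, 266 and 161 in mutants given saline. In wild type they were 303, 277 and 169 after folinic acid, against 374, 496, 327 and 369.6 after saline. The groups of Rfx3 came closest in mutants, where 312 stood against 299.8, and its interaction was 1.39 ± 0.38 (SE). Fam124a, on chromosome 14, gave 1.09 ± 0.26, with 720.2, 503, 657 and 807 in mutants given folinic acid against 438, 429 and 468 in mutants given saline. Its wild-type signals were 411, 518 and 468 after folinic acid against 695, 559, 833 and 594 after saline. The nearest arrays of Fam124a were 503 and 468, so this gene too was separated by a small gap in mutants.

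Tmtc2, a mannosyltransferase of the endoplasmic reticulum, gave 0.87 ± 0.26 (SE). It stood at 426, 457, 450.4 and 402 in mutants given folinic acid and at 356, 331 and 351 in mutants given saline. The wild-type signals were 309.9, 278 and 346 after folinic acid and 398, 432, 617 and 395 after saline. Spread within the groups of Tmtc2 was small apart from the array at 617, but a brighter probe set of the gene gave 0.06 ± 0.31. Zfp597, a zinc finger gene, gave 1.05 ± 0.44, with 232, 215, 254 and 243 in mutants given folinic acid and 210.3, 69.1 and 182 in mutants given saline. In wild type Zfp597 stood at 183, 144 and 153 after folinic acid and 194, 190.1, 188 and 201 after saline. One mutant given saline, at 69.1, sets much of the size of that interaction, which was 0.55 without it, and a brighter probe set gave 0.20 ± 0.24.

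In the other direction, Dusp14, a dual-specificity phosphatase of the MAP kinase pathway on chromosome 11, was lower in mutants and higher in wild type after folinic acid. It stood at 132, 252, 189 and 163 in mutants given folinic acid and at 293, 279.6 and 274 in mutants given saline. Wild-type signals of Dusp14 were 362, 321 and 301 after folinic acid and 198, 206, 178 and 215 after saline. The responses were of near equal size, -0.66 ± 0.23 and 0.72 ± 0.23, and the interaction was -1.38 ± 0.32 (SE, adjusted p = 0.938).

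Ccng1, which encodes cyclin G1, a target of p53, gave -1.02 ± 0.30 (SE). Its signals were 948, 877, 812 and 674 in mutants given folinic acid against 1172, 1061 and 1086 in mutants given saline. In wild type they were 1114, 1095 and 958 after folinic acid against 721, 943, 439 and 810.2 after saline. The margin for Ccng1 in wild type was narrow, 958 against 943, and the array at 439 is the one with the highest actin ratio. Brighter probe sets of Ccng1 gave -0.79 ± 0.30 and -0.48 ± 0.24, with wild-type responses of 0.11 and -0.06. Neither showed opposite responses without overlap. Hspa4, a chaperone of the Hsp110 family, gave -1.28 ± 0.42. The array with the highest actin ratio stood alone there, at 183 against 489, 489 and 454 for its group. Brighter probe sets of Hspa4 gave -0.08 ± 0.26 and -0.50 ± 0.31, and a dimmer one 0.28 ± 0.66, so this reading was not shared. Wild type given folinic acid had 783, 540.0 and 638 for Hspa4, and the mutants had 301, 376, 462 and 463 after folinic acid and 479, 647 and 556 after saline. Pgm1, a phosphoglucomutase of glycogen metabolism, gave -0.67 ± 0.21, with 510.3, 643, 509.9 and 573 in mutants given folinic acid and 667, 861 and 731 in mutants given saline. Mnat1, an assembly factor of the CDK-activating kinase, gave -0.56 ± 0.22, with 432, 390.2, 328 and 458 in mutants given folinic acid and 495, 514 and 534 in mutants given saline. Both were lower after folinic acid in mutants and higher in wild type by narrow gaps.

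**Figure D2:**
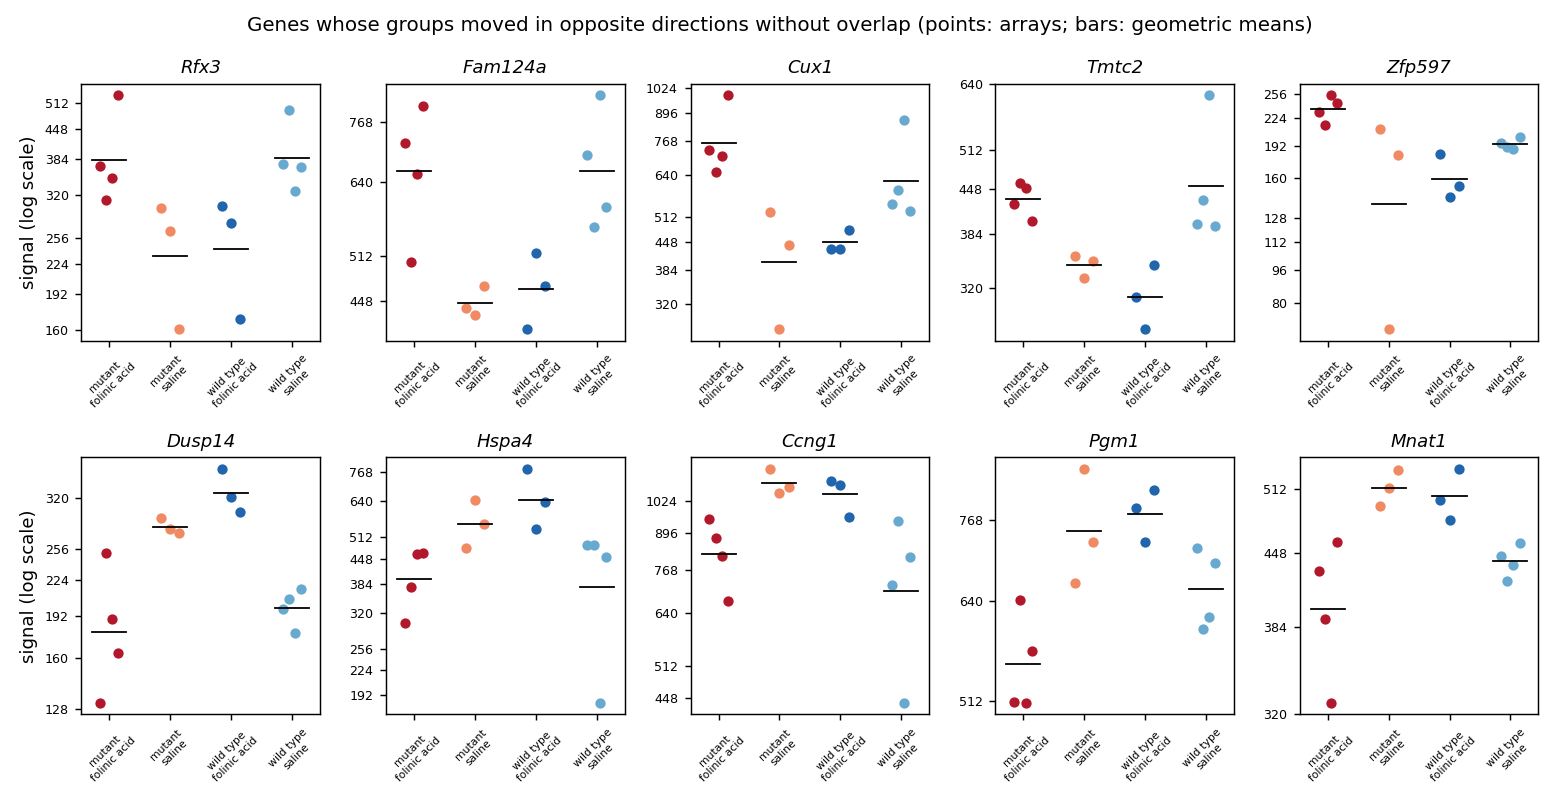
Signal on each array (points, log axis) and geometric mean (bars) of 10 genes with opposite responses and no overlap, for mutants given folinic acid, mutants given saline, wild type given folinic acid and wild type given saline, from left to right. In the upper row mutants given folinic acid and wild type given saline are the high groups, and in the lower row they are the low groups; single arrays stand apart in Zfp597 (69.1) and Hspa4 (183).

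The 10 bright genes above 0 with the smallest interaction p ran from 0.71 ± 0.20 (SE) for Map4k4, a kinase upstream of JNK, to 1.82 ± 0.51 for Gadd45b, a stress-induced growth arrest gene. Besides Cux1, Fam124a and Rfx3 they were Zmiz1, a coregulator of nuclear receptors and Notch (0.85 ± 0.23), and Gpnmb, a transmembrane glycoprotein abundant in macrophages (1.59 ± 0.43). Other probe sets were lower for some of these: the brightest of Zmiz1 gave -0.08 ± 0.22, of the opposite sign, and 3 dimmer ones of Map4k4 above the median signal gave -0.02, 0.20 and 0.32. The kinases Stk10 (1.29 ± 0.36) and Dyrk2 (1.23 ± 0.35) and the Wnt5a receptor Ror2 (1.21 ± 0.33) completed them. Gpnmb had signals of 1253, 553, 700.2 and 522 in mutants given folinic acid and 351, 454 and 363 in mutants given saline. In wild type Gpnmb stood at 539, 665 and 347 after folinic acid and at 808, 558, 1204 and 829 after saline, and these groups overlapped. Without replicate 1 of the mutants given folinic acid, the interaction of Gpnmb was 1.32. All 10 had an adjusted p of 0.938.

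The 10 genes below 0 ran from -1.02 ± 0.26 (SE) for Parn, a poly(A) ribonuclease, to -1.93 ± 0.44 for Atp2b2, a calcium pump of the plasma membrane. In 9 of the 10, all but Dusp14, wild-type arrays overlapped, and the response of the mutants was the larger in size. Gpt2, the mitochondrial alanine aminotransferase encoded on chromosome 8, had the smallest p (interaction -1.58 ± 0.34, adjusted p = 0.938). Its signals were 355, 526, 655 and 529.6 in mutants given folinic acid against 1339, 1278 and 1509.9 in mutants given saline. In wild type Gpt2 stood at 1064, 850.4 and 1133 after folinic acid against 844, 1426, 637 and 914 after saline. Every mutant given folinic acid lay below every other array but one at 637.

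Etnk1, the ethanolamine kinase of phosphatidylethanolamine synthesis, gave -1.66 ± 0.36 (SE), and Stx18, a syntaxin of the endoplasmic reticulum, gave -1.65 ± 0.37. Etnk1 stood at 508, 855, 634 and 564 in mutants given folinic acid, 1221, 1709.6 and 1739.8 in mutants given saline, 1251, 976 and 835 in wild type given folinic acid, and 609, 1296, 648 and 719 in wild type given saline. The mutants given saline were the high group, and the mutants given folinic acid overlapped wild type given saline. Wee1, the kinase that holds CDK1 inactive, gave -1.68 ± 0.38, with 311, 576, 294 and 279 in mutants given folinic acid and 949, 1052 and 771 in mutants given saline. Wild-type signals of Wee1 were 851, 460 and 408 after folinic acid and 408, 479, 498 and 403 after saline. Without replicate 1 of wild type given folinic acid, the array at 851, its interaction was -1.36. Acsl4, an acyl-CoA synthetase with a preference for arachidonate, gave -1.78 ± 0.43. Cyb5r3, the NADH-cytochrome b5 reductase, gave -1.48 ± 0.36 and Tcf19, a transcription factor of the G1 to S transition, -1.07 ± 0.26. The 8 epithelial marker genes, which could move with these, had a median interaction of -0.22, with summed signals of 25225 to 44537 in mutants given folinic acid, 43975 to 48928 in mutants given saline, 32587 to 48837 in wild type given folinic acid and 28231 to 52239 in wild type given saline. Their part in the result was not tested.

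**Figure D3:**
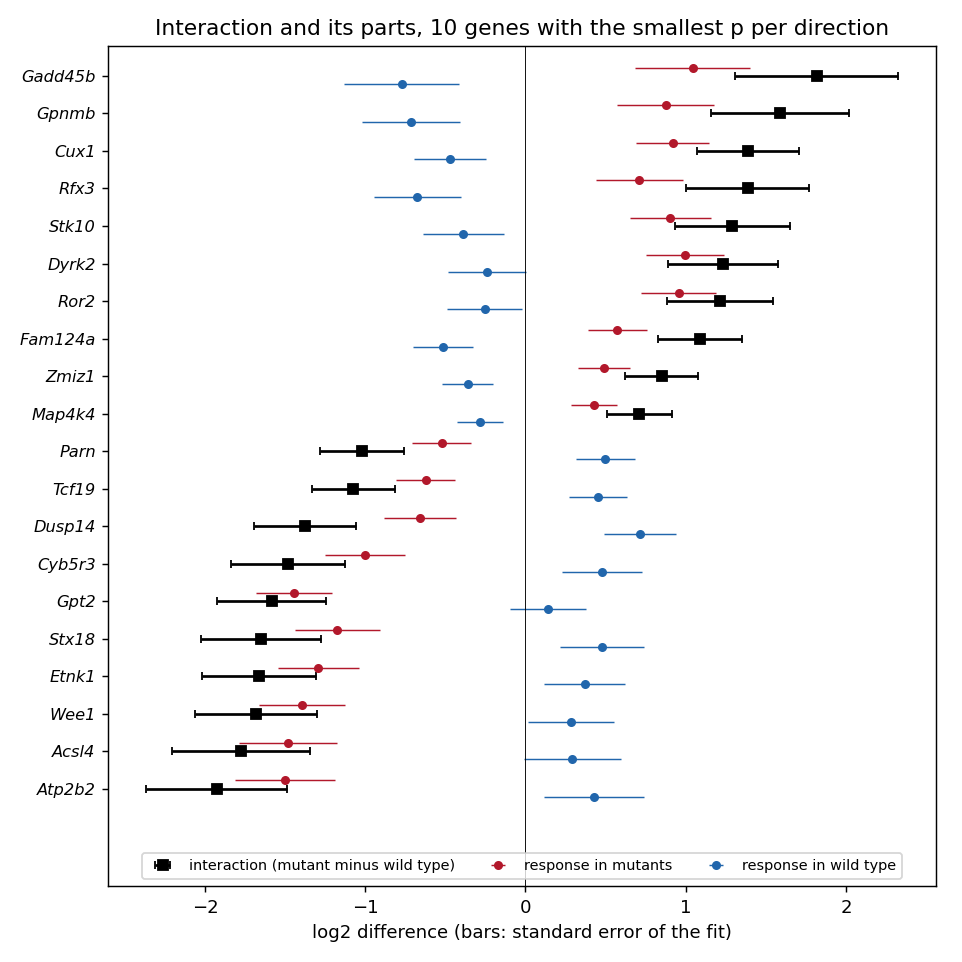
Interaction (black squares), response in mutants (red) and response in wild type (blue), all as log2 differences with the standard error of the fit, for the 10 bright genes of smallest interaction p in each direction. The responses lie on opposite sides of 0 in all 20 genes, and below 0 the response of the mutants is larger than that of wild type in every gene but Dusp14.

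Several probe sets for 1 gene give repeated readings of the same RNA, though some share sequence. Of 1893 genes with at least 3 probe sets above the median signal, 16 had at least 3 with an unadjusted p under 0.05. In all 16 the probe sets had 1 sign, below 0 in 14 genes and above 0 in 2, and in 10 genes every probe set reached that level. The 16 were chosen by p values from the same RNA, so their common sign is no independent support. Etnk1 did so with 5 of 5 probe sets (-1.03 to -1.66), Stx18 with 5 of 5 (-1.29 to -1.92), and the tight junction gene Cldn3 with 4 of 4 (-1.67 to -1.86). The sodium pump subunit Atp1b1 also had 4 of 4, from -1.40 to -1.99. The 2 genes above 0 were Fcgr2b, an inhibitory Fc receptor, and Socs3, an inhibitor of cytokine signalling, whose 3 probe sets gave 1.52 to 1.78. Those named here outside the smallest p values were chosen after their values were seen.

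Genes of the progesterone response stood below 0. Of 27 measured genes, 23 were below 0 and 4 above, with a median of -0.61 against -0.01 over all genes, and 6 had an unadjusted p under 0.05, all below 0, where 3.03% of all genes did so. Lrp2, which encodes the endocytic receptor megalin of the luminal epithelium, gave -3.97 ± 1.34 (SE), the largest in size of the list. Its signals were 106, 4142, 631 and 67.3 in mutants given folinic acid and 4079, 4407 and 3102 in mutants given saline. In wild type they were 2752, 3041 and 1839 after folinic acid and 959, 3885, 1334 and 1455 after saline. Replicate 2 of the mutants given folinic acid kept a level like that of the mutants given saline, while the other 3 were low, and without it the interaction of Lrp2 was -5.13. Dimmer probe sets of Lrp2, also above the median signal, gave -3.90 ± 1.15 and -0.72 ± 0.78. Sgk1, a kinase that controls epithelial sodium transport, was steadier: 2935, 1872, 4723 and 2756 in mutants given folinic acid, 5741, 5131 and 5462 in mutants given saline, 4860.2, 4996 and 5155 in wild type given folinic acid, and 2965, 6241, 2742 and 3456 in wild type given saline. Its interaction was -1.36 ± 0.39, with no overlap between the mutant groups. The activin antagonist Fst gave -2.08 ± 0.86, the histamine-forming enzyme Hdc -1.93 ± 0.88 and the retinoic acid hydroxylase Cyp26a1 -1.50 ± 0.65. Hdc depended on single mutants given folinic acid, with -1.23 without replicate 4 and -2.55 without replicate 2. The list's median interaction was -0.80 without replicate 2 of that group and -0.42 without replicate 3 of wild type given saline. The median level of the list, relative to each gene's mean over the arrays, was -0.24, -0.01, -0.06 and -0.55 in mutants given folinic acid, below 0.16, 0.34 and 0.35 in mutants given saline, while wild type given folinic acid (0.16, 0.08 and -0.07) overlapped wild type given saline (0.08, 0.27, -0.09 and 0.05).

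Secretory genes that oestrogen induces stood on the other side, with 15 of 20 measured genes above 0 and a median of 0.64. Only 1 lay above 0 and 1 below at an unadjusted p under 0.05, where 2.26% and 3.03% of all genes lay. Inhbb, a subunit of activin B, gave 1.67 ± 0.69 (SE), with signals of 1166, 538, 763 and 3604 in mutants given folinic acid against 340.3, 432 and 621 in mutants given saline. Igf1, a growth factor of the stroma, gave -1.23 ± 0.49, one of 5 members below 0. That value was -0.91 without replicate 3 of wild type given saline, and dimmer probe sets of Igf1 gave -0.55 to -0.61. A dimmer probe set of Inhbb gave 0.12. Lcn2, a secreted lipocalin chosen after its values were seen, had 21705, 763, 6087 and 13376 in mutants given folinic acid against 1150.4, 215 and 1856 in mutants given saline. Its spread within groups was wide, and its interaction of 2.45 ± 1.47 had an unadjusted p of 0.116. It was 1.39 without replicate 1 of wild type given folinic acid, 1.52 without replicate 2 of the mutants given saline and 3.44 without replicate 2 of the mutants given folinic acid. The list's median levels were 0.93, -0.62, 0.33 and 1.24 in mutants given folinic acid, -0.24, -0.77 and -0.09 in mutants given saline, -0.20, 0.05 and 0.55 in wild type given folinic acid and 0.04, -0.69, 0.17 and 0.16 in wild type given saline. Replicate 2 of the mutants given folinic acid again stood with the mutants given saline, and the list's median interaction was 0.42 without replicate 2 of wild type given folinic acid and 0.93 without that mutant array.

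Among transport and contact genes of the luminal epithelium, Cldn3 was also highest in replicate 2 of the mutants given folinic acid. Fxyd4, a regulator of the sodium pump, gave -2.31 ± 0.88 (SE), or -3.07 without replicate 2 of the mutants given folinic acid. Cldn3, at -1.67 with all arrays and -2.07 without that one, had 1759, 8339, 3679.8 and 3297 in mutants given folinic acid and 9592, 9324 and 7166 in mutants given saline, with 5979.9, 6059 and 6339 in wild type given folinic acid and 3014, 8997, 3290.4 and 4734 in wild type given saline. The highest array was replicate 2 both in mutants given folinic acid and in wild type given saline. The calcium-binding gene Calb1 gave -2.44 ± 0.87, or -3.11 without that mutant array. Cdh16, a kidney-type cadherin, gave -2.27 ± 0.65, and Ehf, an epithelial transcription factor, -0.83 ± 0.26. In both, all mutants given folinic acid lay below all mutants given saline, with no array of their group apart. The lists themselves lay closer to all genes: 19 of 26 epithelial genes were below 0 (median -0.17), 11 of 17 genes of ion and water transport (-0.11) and 3 of 6 gland genes (0.03). The epithelial median was -0.05 without replicate 1 of wild type given saline, -0.35 without replicate 4 of the mutants given folinic acid and -0.42 with arrays of a shared title number averaged. That of transport was -0.29 without replicate 1 of the mutants given saline, and that of glands -0.34 without replicate 3 of wild type given folinic acid. In prostaglandin synthesis and reception, 10 of 15 genes were below 0, and the median of -0.16 was 0.03 without replicate 4 and -0.32 without replicate 1 of the mutants given folinic acid. The smallest p in that list were those of the phospholipase Pla2g4a (-1.40 ± 0.41), which frees arachidonate, and the receptor Ptger2 (-1.15 ± 0.44).

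Genes of cell division lay below 0 as groups. All 24 measured genes of mitosis and the spindle lay below 0, with a median of -0.58, but only 1 had an unadjusted p under 0.05. Of 30 genes of DNA replication, 27 lay below 0, with a median of -0.50 and 6 at that level, all below 0. Among all genes 3.03% lay there, so the count for mitosis was near that share. Members of these lists vary together from sample to sample, so their common sign is not many independent readings. Nuf2, of the kinetochore, gave -1.41 ± 0.52 (SE), the polymerase subunit Pole -1.69 ± 0.56, and Uhrf1, which couples DNA methylation to replication, -1.32 ± 0.45. Tk1, thymidine kinase, gave -1.23 ± 0.57. Without replicate 3 of the mutants given saline, Nuf2 gave -0.86 and Tk1 -0.63, and Uhrf1 gave -0.99 without replicate 2 of the mutants given folinic acid. The median level of the mitosis list was 0.12, -1.14, -0.40 and -0.47 in mutants given folinic acid and 0.30, -0.68 and 0.94 in mutants given saline, against 0.01, -0.13 and 0.75 in wild type given folinic acid and -0.05, 0.37, 0.10 and 0.45 in wild type given saline. The groups overlapped in both genotypes, and the size depended on single mutants given saline: the list's median interaction was -1.12 without replicate 2 and -0.30 without replicate 3, and that of DNA replication -0.77 and -0.34.

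Promoters of 4 genes of cell division are shown because all measured mitosis genes lay on 1 side of 0 and many carry short elements known from the cell cycle. They run from 250 bases before to 50 after the start of the gene, from RefSeq on build GRCm38.p6, 5' to 3' on the strand of the gene. Capitals mark 3 motifs on either strand. The first is CCAAT. The second is TTTGAA, the cell-cycle homology region. The third is an E2F element, read as TTTGGCG or any of the forms TTTCGCG and TTTCCCG and also TTTGCCG. Neighbouring matches may run together in capitals. The Top2a promoter lies at chr11:99024140-99024439 (minus strand), that of Mki67 at chr7:135716330-135716629 (minus), that of Ube2c at chr2:164769679-164769978 (plus) and that of Pola1 at chrX:93632106-93632405 (minus).
Top2a: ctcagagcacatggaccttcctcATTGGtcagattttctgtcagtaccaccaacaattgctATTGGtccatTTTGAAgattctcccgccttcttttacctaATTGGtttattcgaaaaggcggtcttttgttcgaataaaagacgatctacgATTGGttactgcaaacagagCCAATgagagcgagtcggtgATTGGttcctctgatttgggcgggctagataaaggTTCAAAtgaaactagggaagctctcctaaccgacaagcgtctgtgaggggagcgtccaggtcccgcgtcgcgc
Mki67: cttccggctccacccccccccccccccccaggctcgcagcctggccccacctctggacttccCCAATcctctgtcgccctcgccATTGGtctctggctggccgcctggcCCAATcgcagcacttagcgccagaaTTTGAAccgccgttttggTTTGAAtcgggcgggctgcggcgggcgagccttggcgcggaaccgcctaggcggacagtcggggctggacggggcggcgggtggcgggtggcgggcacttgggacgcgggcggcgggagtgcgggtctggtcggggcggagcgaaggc
Ube2c: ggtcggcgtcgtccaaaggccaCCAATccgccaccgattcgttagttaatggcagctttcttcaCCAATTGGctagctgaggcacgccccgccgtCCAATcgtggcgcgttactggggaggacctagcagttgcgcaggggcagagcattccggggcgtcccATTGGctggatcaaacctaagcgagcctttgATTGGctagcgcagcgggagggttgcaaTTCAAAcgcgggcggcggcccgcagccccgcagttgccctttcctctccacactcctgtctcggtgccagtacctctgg
Pola1: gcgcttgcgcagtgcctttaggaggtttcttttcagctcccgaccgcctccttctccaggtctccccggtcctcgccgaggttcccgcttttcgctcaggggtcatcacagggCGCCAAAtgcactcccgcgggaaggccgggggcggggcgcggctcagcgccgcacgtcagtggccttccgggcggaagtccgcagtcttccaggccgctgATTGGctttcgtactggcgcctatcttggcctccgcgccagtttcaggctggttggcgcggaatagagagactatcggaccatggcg
These genes were chosen after their values were seen. Among 25 promoters found for 23 of the 24 mitosis genes, 76.0% held CCAAT, 76.0% TTTGAA and 12.0% the E2F element. Among 28 promoters of 23 of the 30 replication genes the shares were 57.1%, 10.7% and 42.9%, and among all 32851 promoters listed they were 37.4%, 17.9% and 6.7%. The form of the E2F element was shortened after its matches had been seen, and with 1 further base, a C at the 3' end, the shares were 4.0% of mitosis promoters, 35.7% of replication promoters and 2.26% of all. A match is a run of letters, not a shown binding site.

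The values of the 4 genes were modest. Top2a, the topoisomerase of dividing cells, stood at 1182, 727, 966 and 838 in mutants given folinic acid and 1806, 842 and 2512 in mutants given saline, and at 1253, 1219 and 2021 in wild type given folinic acid and 1216, 1716, 1459 and 1684 in wild type given saline. Its interaction was -0.73 ± 0.41 (SE). Mki67, the proliferation antigen, gave -0.52 ± 0.48, and Ube2c, the ubiquitin-conjugating enzyme of the anaphase-promoting complex, -1.13 ± 0.55. These sizes rested on single mutants given saline: without replicate 3 they were -0.39 for Top2a, -0.14 for Mki67 and -0.74 for Ube2c, and without replicate 2 they were -1.17, -0.98 and -1.68. A dimmer probe set of Top2a gave 0.17. Pola1, the catalytic subunit of polymerase alpha, gave -0.96 ± 0.36, with mutants given folinic acid (348, 223, 366 and 256) below mutants given saline (368, 380.0 and 532) by a narrow margin.

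Of the folate and one-carbon genes, 21 of 27 lay below 0, with a median of -0.30. At an unadjusted p under 0.05 there was 1 gene, below 0, which is near the share of all genes there (3.03%). That gene was Mthfd2, the mitochondrial dehydrogenase and cyclohydrolase of methylenetetrahydrofolate, at -2.15 ± 0.83 (SE). Its signals were 261, 1167, 473 and 141 in mutants given folinic acid, 1344, 1656 and 576 in mutants given saline, 817, 1039 and 823 in wild type given folinic acid and 442, 1395, 302 and 581 in wild type given saline. Every group overlapped its partner, and without replicate 2 of the mutants given folinic acid the value was -2.70. Among the other genes of the cycle, Mthfd1, which interconverts one-carbon folates in the cytosol, gave -1.17 ± 0.60, the reduced folate carrier Slc19a1 -0.24 ± 0.23, methionine synthase Mtr -0.65 ± 0.39 and Shmt2, the mitochondrial serine hydroxymethyltransferase, -0.34 ± 0.29. The folate receptors gave 0.50 ± 0.58 for Folr1, which was dim, and 0.45 ± 0.58 for Folr2, a receptor of macrophages. Both varied with single arrays, with 0.14 to 0.71 for Folr1 and 0.14 to 0.78 for Folr2 leaving out each in turn. The list's median level in mutants was -0.36, -0.04, 0.05 and -0.30 after folinic acid and 0.11, 0.01 and 0.00 after saline. Without replicate 3 of wild type given saline its median interaction was -0.16. Mthfd1, Slc19a1, Mtr and Shmt2 were named for their roles after their values were seen.

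Genes of immune cells lay mostly above 0. Of 23 measured genes of macrophages and dendritic cells, 22 were above 0 (median 0.84), and the same held for 17 of 19 cytokines and chemokines (0.71), 15 of 16 genes of antigen presentation (0.49) and 21 of 23 interferon-stimulated genes (0.24). At an unadjusted p under 0.05 above 0 there were 2, 4, 1 and 1 of these, where 2.26% of all genes lay there. Ccr2, the chemokine receptor of monocytes, gave 1.34 ± 0.40 (SE), with 2448, 2243, 1342 and 2586 in mutants given folinic acid, 963, 699 and 878 in mutants given saline, 1158, 1703 and 2824 in wild type given folinic acid and 2232, 1412, 1477 and 2279 in wild type given saline. The mutants given saline were the low group, below every other array. Cd68, a lysosomal protein of macrophages, gave 1.44 ± 0.60, with 1778, 370.0, 546 and 909 in mutants given folinic acid and 202, 429 and 569.5 in mutants given saline. The macrophage list stood at 1.72, -0.58, 0.06 and 0.29 in mutants given folinic acid, -0.80, -0.32 and 0.12 in mutants given saline, -0.24, -0.16 and -0.04 in wild type given folinic acid and -0.07, -0.45, 0.01 and 0.70 in wild type given saline. Replicate 1 of the mutants given folinic acid stood far above the rest, and the list's median interaction was 0.38 without it and 1.15 without replicate 2. That of cytokines was 0.44 without replicate 1, and without replicate 4 of wild type given saline that of antigen presentation was 0.21 and that of interferon-stimulated genes 0.09. The 7 macrophage markers had summed signals of 9734 to 59317 in mutants given folinic acid, 9066 to 17405 in mutants given saline, 13317 to 17342 in wild type given folinic acid and 10085 to 29112 in wild type given saline, and their part in the interaction of single genes such as Gpnmb was not tested.

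**Figure D4:**
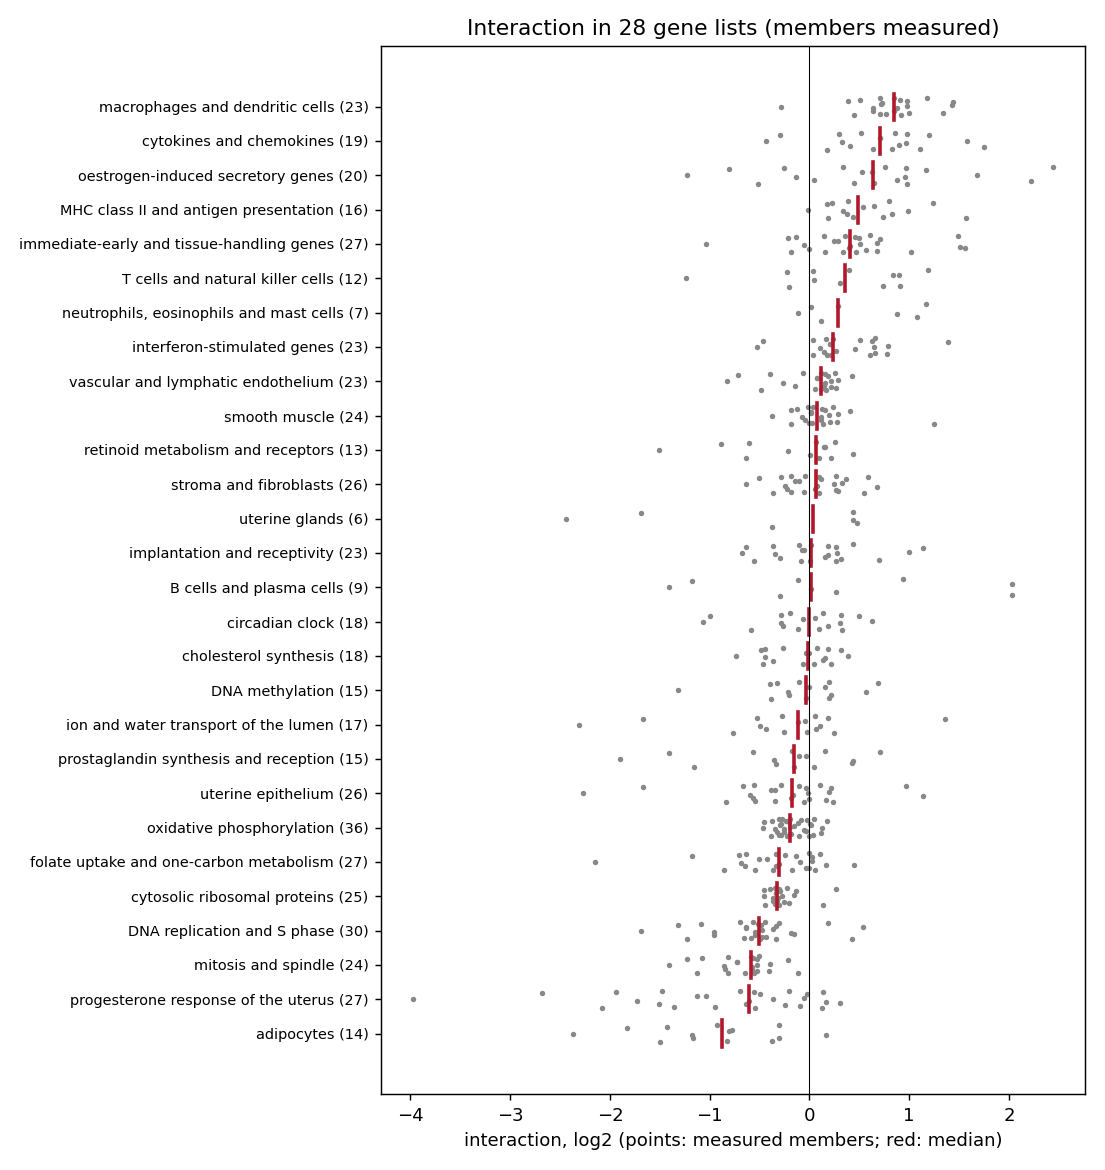
Interaction (log2, horizontal axis) of the measured members of 28 gene lists (points, number measured in brackets) with the list median in red. Medians run from -0.87 for adipocyte genes to 0.84 for macrophage and dendritic cell genes, and structural lists such as smooth muscle (0.07) and stroma (0.06) lie near 0.

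Genes of fat cells were the lowest list, with 13 of 14 below 0 and a median of -0.87. At an unadjusted p under 0.05 there were 4, all below 0, where 3.03% of all genes lay. Those with the smallest p were Acaca, the acetyl-CoA carboxylase of fatty acid synthesis (-0.92 ± 0.35, SE), and the adiponectin receptor Adipor2 (-0.80 ± 0.31, and -0.19 by a dimmer probe set). Fasn, fatty acid synthase, gave -0.83 ± 0.32. Without replicate 3 of the mutants given saline the list's median was -0.52. Defining markers of adipocytes were uneven between uteri: summed signals were 1601 to 7083 in mutants given folinic acid, 1504 to 16417 in mutants given saline, 3166 to 22063 in wild type given folinic acid and 261 to 12640 in wild type given saline. Their part in the list's value was not tested.

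Immediate-early genes, which respond within minutes to handling of tissue, had 21 of 27 above 0 (median 0.41). At an unadjusted p under 0.05 there were 4 above and 1 below 0, where 2.26% and 3.03% of all genes lay. Socs3 gave 1.56 ± 0.66 (SE), or 1.01 without replicate 1 of the mutants given folinic acid, and the stress factor Atf3 1.02 ± 0.40, while the growth regulator Myc, chosen after its values were seen, gave -1.04 ± 0.45. The list's median level was 0.67, 0.21, 0.03 and 0.04 in mutants given folinic acid, above -0.18, -0.08 and -0.07 in mutants given saline, and -0.27, -0.01 and -0.18 in wild type given folinic acid against -0.01, -0.05, 0.23 and -0.23 in wild type given saline. The mutant groups did not overlap and the wild-type groups did. The labels state no times of dissection.

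**Figure D5:**
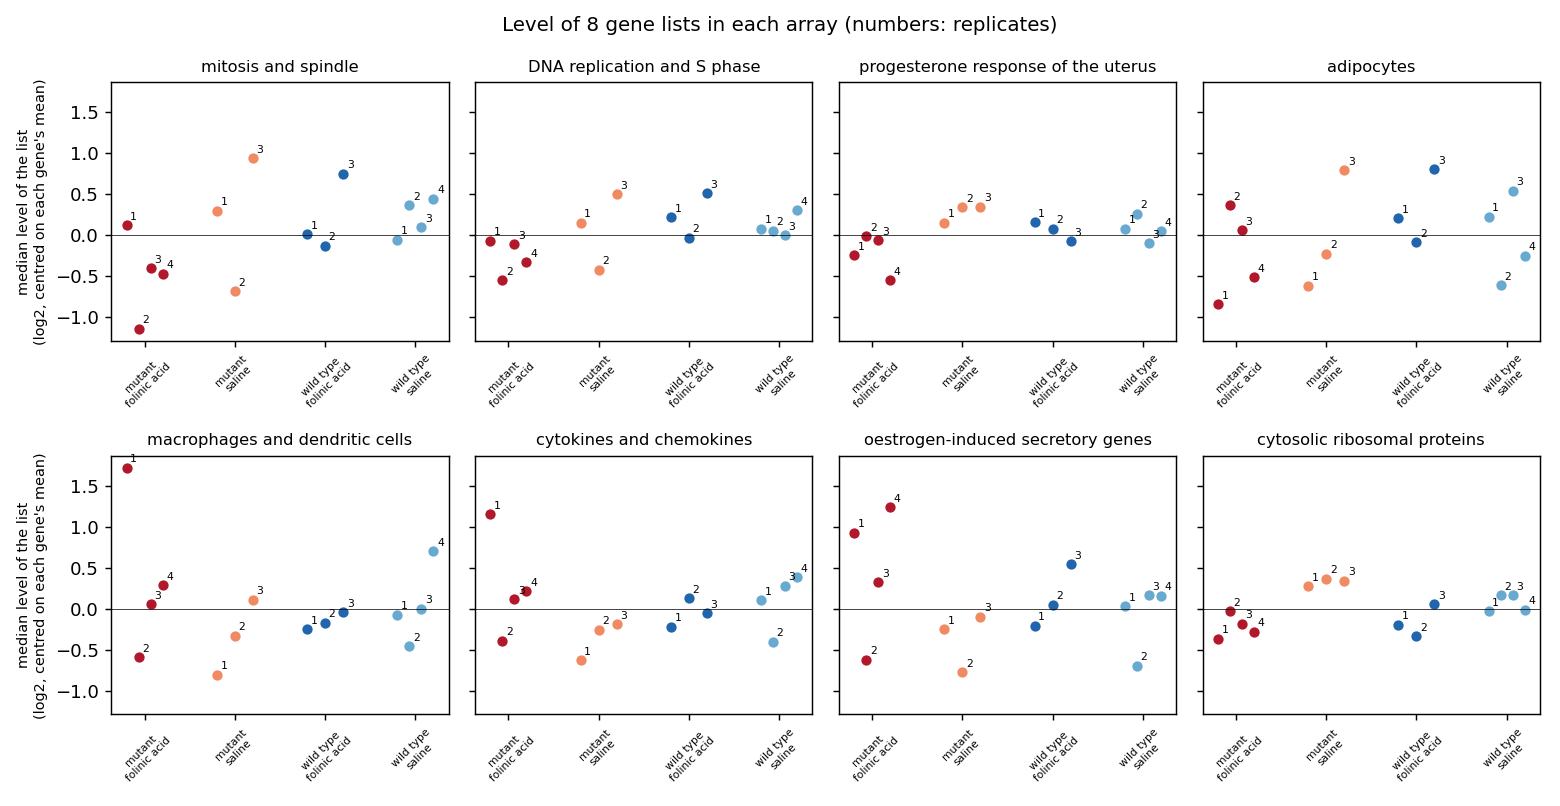
Median level of 8 gene lists on each array (log2, centred on each gene's mean over the 14 arrays; numbers are replicates) for mutants given folinic acid, mutants given saline, wild type given folinic acid and wild type given saline, from left to right. Replicate 1 of the mutants given folinic acid is highest for macrophage genes (1.72) and replicate 2 is lowest for mitosis genes (-1.14). The progesterone list and the ribosomal protein list each separate the mutant groups.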

How the data were processed

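Total RNA of 14 mouse uteri was labelled by the Affymetrix one-cycle assay, per the labels' protocols. For every probe set the authors deposited 1 intensity on a linear scale, computed with MAS5 per the submitters' processing notes (no version given), and each array had a trimmed mean of 500.002 to 500.003. The number of arrays limits the precision. Of 45101 probe sets, 64 controls were left out, and 34945 of the other 45037 carried 1 gene symbol. Signals below 1 (0.505% of values) were raised to 1 and put on the log2 scale.

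One limma 3.58.1 fit in R 4.3.3 (lmFit, then eBayes with a trend on mean signal; 10 residual degrees of freedom) held 4 group means, and p-values were two-sided and adjusted by Benjamini-Hochberg over all 45037 probe sets. Probe sets below the median mean signal (134.2) were tested but not named by rule. The fit was also run on simulated data with independent noise and planted interactions. That checks the calculation, not the behaviour of these arrays. Genes were named by the smallest p (10 per direction), by opposite responses without overlap (5 per direction), and as up to 2 members of each list with an unadjusted p under 0.05, and any other gene named was chosen after its values were seen. Lists are described by counts and medians, without a test. Members and lists were chosen with earlier results of these data known. Alternatives tried were another normalization, offset, filter, variance model, array weights, blocks, the actin ratio as a covariate, and leaving out each array.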

Additional observations from a re-analysis of the deposited data

Results flagged for a closer look

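Of 158 groups of 4 arrays examined for the named genes, 8 held an array far from the other 3 by Dixon's criterion. Chance picks out about 1 in 20 groups, so the count was near that share. In mutants given folinic acid, replicate 2 stood apart for Wee1 (575.61, against 279 to 311 for the others), Stard4, a sterol transfer gene (364.54, against 511 to 524), and the chemokine Cxcl14 (452.89, against 1239 to 1454). In wild type given saline, replicate 3 stood apart for Hspa4 (183.1, against 454 to 489), Igf1 (4200.0, against 9403 to 10805), the ribosomal protein gene Rps6 (3366.4, against 3870 to 3932) and Cxcl14 (1451.5, against 852 to 873). Replicate 2 of that group stood apart for Acaca (1264.2, against 840 to 893). All but that of Acaca fell on replicate 2 of the mutants given folinic acid or replicate 3 of wild type given saline. The former lay apart from its own group on the first principal component, and the latter had the highest actin ratio. Groups of 3 arrays were not examined.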

How the results depend on the processing

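The count of probe sets past the adjusted threshold was 0 under all 11 alternatives other than leaving out an array, and 0 to 2 over the 14 fits that each left out 1 array; the 2 were called without replicate 3 of the mutants given saline, where Neurl3 reached 4.81. The unadjusted count was 1104 with a filter at the median signal and 991 with 1 probe set per gene, because fewer probe sets were tested, and it was 1884 to 3363 leaving out each array, highest without replicate 2 of the mutants given folinic acid. Opposite responses without overlap numbered 15 with the filter, 19 with 1 probe set per gene and 275 with arrays of a shared title number averaged, and 72 to 156 leaving out each array, since smaller groups separate more easily. Of the named genes only Izumo1r turned sign, to -0.17 without replicate 3 of the mutants given saline and -0.04 without replicate 3 of the mutants given folinic acid, in a range of -0.17 to 1.49 leaving out each array. Of 28 list medians, 15 kept 1 sign under all 25 settings, and that of cytosolic ribosomal proteins was -0.02 after quantile normalization against -0.32; the cause was not tested. With replicate number as a block, 0 probe sets passed and 2046 had an unadjusted p under 0.05. The numbers are not said to pair samples: correlations of deviations over 19 same-numbered pairs ran from -0.337 to 0.354, and 6 were over 0.1. Their median was 0.0113, against -0.0245 for pairs of unlike number, and 8 of 14 arrays correlated best with their own number. Whether the numbers pair samples was not tested.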

Other observations

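Lists of energy and protein synthesis were low by small, even amounts. Of 36 genes of oxidative phosphorylation 29 lay below 0 (median -0.20), and of 25 cytosolic ribosomal protein genes 23 did (-0.32, or -0.02 after quantile normalization), with Rps6 at -0.44 ± 0.20 (SE). The ribosomal list stood at -0.36, -0.03, -0.18 and -0.27 in mutants given folinic acid and 0.28, 0.37 and 0.35 in mutants given saline, and at -0.19, -0.33 and 0.06 in wild type given folinic acid and -0.02, 0.17, 0.17 and 0.00 in wild type given saline. Both genotypes were lower after folinic acid in this list, the mutants by more (median responses -0.50 in mutants and -0.23 in wild type).

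Lists of tissue structure and receptivity had medians near that of all genes: 0.06 for stroma, 0.07 for smooth muscle, 0.12 for endothelium, 0.01 for implantation and receptivity, 0.07 for retinoid metabolism, -0.02 for cholesterol synthesis, -0.03 for DNA methylation and -0.01 for the circadian clock. The median was 0.35 for 12 genes of T and natural killer cells, 0.01 for 9 genes of B cells and 0.29 for 7 genes of granulocytes and mast cells, and the sign of all 3 depended on the settings. Erdr1 lay between 5553 and 11928 in mutants and between 141 and 569.7 in wild type by its brighter probe set. The interaction of that probe set was -0.74 ± 0.48 (SE, limma unadjusted p = 0.138). A dim probe set of Erdr1 gave 2.19 ± 0.85 (limma unadjusted p = 0.0201), of the opposite sign.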
